A study of Mus musculus with 20 samples.

Results

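The comparison described here sets 5 mouse embryos at E16.5 that lacked the glucocorticoid receptor (GR, gene Nr3c1) in lung mesenchyme against 5 control embryos of the same stage. Its members are the 10 arrays titled as E16.5 control or E16.5 GR ablation, of 20 arrays in all, and they were chosen by title alone. The remaining 10 arrays are 5 controls and 5 mutants at E18.5. Controls carried the floxed receptor gene without ablation (genotype GR flox (control)), and mutants (genotype GRCol1-Cre) also carried Cre recombinase under the control of the collagen type (I)-alpha-2 locus. All animals were on the C57Bl6 background, and the labels name no treatment. RNA came from the whole left lung lobe, with 1 animal per array, so each value mixes mesenchyme with epithelium, endothelium and blood cells, in which this Cre is not meant to act. In such bulk RNA, fewer cells of a type and less RNA per cell cannot be told apart.

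GR is a nuclear receptor that binds glucocorticoids and then regulates transcription, and among its best known targets are the clock gene Per1 and the chaperone gene Fkbp5. Fetal glucocorticoid rises late in gestation and matures the lung for breathing, and embryos without the receptor die at birth with immature lungs. Mesenchymal cells of the lung also regenerate active hormone from its inactive 11-keto form through the enzyme encoded by Hsd11b1. E16.5 lies before the late rise, so the comparison asks which transcripts depend on mesenchymal GR at that time.

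Values are log2 signals of Affymetrix Mouse430A_2 arrays, and the 8068 genes tested are those above 4 on at least 5 arrays of the 20. A gene is called here when its Benjamini-Hochberg adjusted p from limma was under 0.05 over all genes tested, and differences are mutant minus control with limma's standard error (SE). In each group of 5, values are listed in the order of replicates 1 to 5. Array medians at E16.5 lay between 5.70 and 5.80, and correlations over all probe sets were 0.993 to 0.998 among controls and 0.995 to 0.998 among mutants. Judged by Xist and Y-linked transcripts, control replicate 5 was the only female among the 5 E16.5 controls, while 5 of 5 mutants were female. Sex and genotype therefore nearly coincide at this stage. On the line from the mean E16.5 control (0) to the mean E18.5 control (1), controls lay at -0.090 to 0.21 and mutants at -0.13 to 0.087, and control replicate 5 was again the one at the upper end. Epithelial and mesenchymal transcripts were present as the tissue label says, with Sftpc, a surfactant gene, at a mean of 14.79 in both groups, Cdh1 at 11.82 and 11.66 and Acta2 at 13.25 and 13.24 in controls and mutants, while the lung epithelial gene Nkx2-1 was dim (log2 under 4) on all E16.5 arrays.

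Upstream sequence is shown for Per1 and Ppp1r3c, the called genes whose windows held one of the motifs searched, and for the neighbouring genes G0s2 and Hsd11b1, among the largest falls. Each is the 250 bases before the annotated start, 5' to 3' on the gene's strand, from RefSeq (GRCm38.p6), and capitals mark the E-box CACGTG, the motif bound by the clock activators.

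Per1, chr11:69098699-69098948, plus strand: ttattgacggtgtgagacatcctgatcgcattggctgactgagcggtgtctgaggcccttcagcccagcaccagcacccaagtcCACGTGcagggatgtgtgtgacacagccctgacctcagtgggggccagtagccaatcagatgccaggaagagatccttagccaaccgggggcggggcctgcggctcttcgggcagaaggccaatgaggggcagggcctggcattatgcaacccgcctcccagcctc
Ppp1r3c, chr19:36736605-36736854, minus strand: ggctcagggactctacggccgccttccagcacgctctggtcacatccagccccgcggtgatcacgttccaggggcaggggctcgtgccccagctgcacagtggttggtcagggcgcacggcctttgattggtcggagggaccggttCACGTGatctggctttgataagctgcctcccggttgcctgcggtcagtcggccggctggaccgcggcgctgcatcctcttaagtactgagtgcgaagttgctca
G0s2, chr1:193273189-193273438, minus strand: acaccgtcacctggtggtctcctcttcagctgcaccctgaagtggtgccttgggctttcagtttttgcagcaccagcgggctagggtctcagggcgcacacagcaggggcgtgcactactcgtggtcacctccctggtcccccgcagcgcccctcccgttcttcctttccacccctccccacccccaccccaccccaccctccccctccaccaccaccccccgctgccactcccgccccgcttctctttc
Hsd11b1, chr1:193242361-193242610, minus strand: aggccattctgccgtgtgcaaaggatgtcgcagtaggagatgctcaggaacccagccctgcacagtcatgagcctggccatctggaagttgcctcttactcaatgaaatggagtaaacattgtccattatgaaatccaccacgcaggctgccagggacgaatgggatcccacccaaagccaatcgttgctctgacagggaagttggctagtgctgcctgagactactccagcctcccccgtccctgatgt

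Of the 20 genes called at E16.5, 13 matched the promoter table, with 17 windows. The E-box lay 166 to 161 bases before the start in Per1 and 104 to 99 bases before it in Ppp1r3c, and 6.02% of all 32851 windows of that length held it. The full palindromic glucocorticoid response element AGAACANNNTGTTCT, its inner form GAACANNNTGTTC and its single arm AGAACA were searched on both strands, as were the D-box TTATGTAA and the ROR element AAAGGTCA. They were in 0 of the 17 windows, against 0.00913%, 0.0396%, 16.1%, 0.819% and 1.34% of all windows in the same order. The inner form and the single arm are contained in the full element, and a window without these letters says nothing about binding elsewhere.

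At E16.5, 20 genes were called, which is 0.248% of the 8068 tested. Of these, 16 were lower in mutants (0.198%) and 4 were higher (0.0496%). With the replicate number as a block within each stage, 12 genes were called lower and 0 higher. The falls were led by Hsd11b1, Cldn1, G0s2 and Nr3c1 itself, and the rises were in Rspo2, Prrx1, Nr1d2 and Nr2f1. In all 20 called genes the 5 mutants lay beyond the 5 controls with no overlap, which was so for 81 genes, or 1%, of all those tested (53 lower, 0.657%, and 28 higher, 0.347%). A log2 difference of at least 1 in size was measured in 23 genes, 19 of them lower, and 8 of the 23 were called. An unadjusted p under 0.05 was found in 356 genes (4.41%), 172 lower (2.13%) and 184 higher (2.28%). The median difference over all genes was 0.01.

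**Figure D1:**
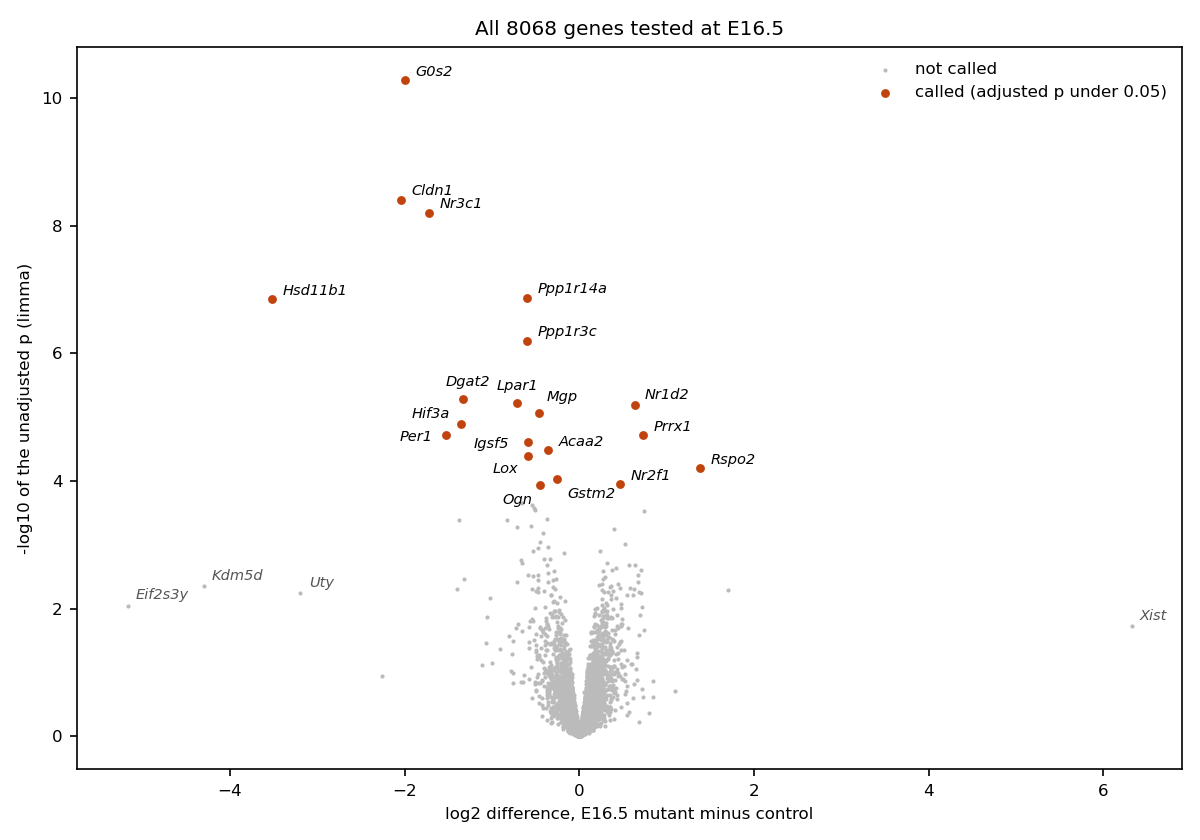
Each point is 1 of the 8068 genes tested at E16.5, with the log2 difference of mutant minus control on the horizontal axis and -log10 of the unadjusted limma p on the vertical axis. The 20 called genes are coloured and named, 16 of them to the left of 0, and the sex-linked genes Xist, Eif2s3y, Kdm5d and Uty lie far from 0 without being called.

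The receptor and the supply of its ligand come first. Nr3c1 read 8.69, 8.58, 8.74, 8.76 and 9.15 in controls and 6.31, 7.22, 7.50, 7.10 and 7.19 in mutants. Its level fell by 1.72 log2 units (SE 0.17, adjusted p = 1.66e-05) to 30.4% of that in controls, and the highest mutant stayed below the lowest control. The position of its probe sets relative to the floxed part of the gene was not analysed here. Hsd11b1, which encodes the enzyme that makes active glucocorticoid within cells, read 7.17, 8.15, 7.0, 8.19 and 9.59 in controls. In mutants it read 3.88, 3.54, 5.76, 4.97 and 4.37, so 2 mutants were below the dim limit of 4 and the spread within each group was wide. Its fall of 3.52 (SE 0.43, adjusted p = 0.000224) was the largest among the called genes and left 8.75% of the control level. H6pd, which supplies that enzyme with its cofactor, was at -0.51 (SE 0.12) and did not pass (adjusted p = 0.0935). In the list of corticosteroid receptors, chaperones and steroid activation 2 of 10 tested members were called, both lower, and the median was 0.01. The receptor chaperones Hsp90aa1 and Fkbp4, chosen after their values were seen, were at -0.04 and 0.05, and Hsd11b2, which inactivates glucocorticoid, was dim on all E16.5 arrays.

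Genes known to be induced by glucocorticoid lay mostly below their control level, but few passed singly. Of 30 tested members 27 had lower means in mutants, 2 were called (Hif3a and Per1) and 10 were lower at an unadjusted p under 0.05, a level that 2.13% of all genes reached in that direction. Their median difference was -0.24, against 0.01 over all genes. The list was written with earlier results of these data known. Its tested members Pdk4, Lcn2 and Slc10a6, chosen after their values were seen, were dim on all E16.5 arrays (control means 3.08, 3.18 and 2.19). They passed the filter through E18.5 arrays alone, and Pdk4 (-0.53) is among the 10. Per array, the mean of the list was 7.70 to 8.31 in controls and 7.40 to 7.72 in mutants, so the groups overlapped slightly. Hif3a, a hypoxia-inducible factor subunit that restrains its relatives, read 9.12, 9.05, 9.19, 9.46 and 10.13 in controls and 7.47, 8.34, 8.27, 7.83 and 8.28 in mutants. It fell by 1.35 (SE 0.23, adjusted p = 0.00931), and by 0.43 (adjusted p = 0.0459) when all its probe sets were averaged, the dim ones included. Gadd45b, a growth arrest gene, was at -0.53 (adjusted p = 0.432) and the transcription factor gene Cebpb at -0.30 (adjusted p = 0.616). Members chosen after their values were seen were Klf9, a classic hormone target, at -0.45 (unadjusted p = 0.0196), Fkbp5, the receptor's own feedback chaperone, at -0.40 (unadjusted p = 0.0371), and Tsc22d3, an anti-inflammatory target, at -0.28 (unadjusted p = 0.140). The kinase gene Sgk1, another textbook target, was at -0.01.

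Within the clock, one repressor fell and another rose. Per1, part of the negative limb, read 6.28, 6.21, 6.07, 6.59 and 7.45 in controls and 5.11, 4.75, 5.18, 4.41 and 5.50 in mutants. It fell by 1.53 (SE 0.27, adjusted p = 0.0118), and its call ended without mutant replicate 4 (-1.38, adjusted p = 0.0524). Nr1d2, the nuclear receptor REV-ERB beta that represses the core activator Arntl, moved the other way. Its controls read 8.32, 8.41, 8.35, 8.50 and 8.16, and its mutants 9.10, 9.02, 8.89, 8.85 and 9.05. Nr1d2 rose by 0.63 (SE 0.10, adjusted p = 0.00571), or 0.32 (adjusted p = 0.0235) as the mean of its probe sets, and was not called with sex as a covariate (0.66, adjusted p = 0.0625). Per2 was at -0.70 (SE 0.27, adjusted p = 0.837). The core activators, chosen after their values were seen, were close to 0, with Arntl at 0.06 and Clock at -0.04, and Nr1d1, the sister of Nr1d2, was dim on all E16.5 arrays. In all, 1 of 16 tested clock genes was called lower and 1 higher, with a median of -0.04. Times of day at which animals were collected are not given in the labels.

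Of the genes of triglyceride storage, the synthesis enzyme Dgat2 and the lipolysis inhibitor G0s2 were both lower. G0s2 blocks the triglyceride lipase encoded by Pnpla2, and read 9.70, 10.44, 9.87, 10.20 and 10.55 in controls and 8.14, 7.80, 8.41, 8.05 and 8.36 in mutants. Its fall of 2.00 (SE 0.15, adjusted p = 4.14e-07) had the smallest p of all genes tested. On chromosome 1 it is the next RefSeq gene after Hsd11b1, which fell too. Beyond it, Lamb3 was at -0.06 (adjusted p = 1.00) and Camk1g at -0.72 (adjusted p = 0.473), while the nearest genes on the far side of Hsd11b1 were not analysed here. Dgat2, which catalyses the last step of triglyceride synthesis, read 5.95, 5.36, 5.16, 4.98 and 4.87 in controls and 3.55, 4.01, 4.03, 3.98 and 4.07 in mutants, near the dim limit. It fell by 1.34 (SE 0.21, adjusted p = 0.00571). Acaa2, a mitochondrial enzyme of fatty acid oxidation, fell by 0.35 (SE 0.07, adjusted p = 0.0174), from controls at 10.24 to 10.45 to mutants at 9.90 to 10.10. Leaving out control 4 or any of mutants 1, 2 and 5 ended its call, at -0.35 to -0.32. Other members of the storage list were not called, with Fabp5 at -0.52, Pparg at 0.39 and, chosen after its value was seen, the lipase gene Pnpla2 at -0.03. The list had 2 of 17 tested members called lower and a median of -0.02.

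Glycogen metabolism held 1 called gene among 16 tested. Ppp1r3c, which brings protein phosphatase 1 to glycogen and so promotes glycogen synthesis, read 12.05, 12.00, 11.80, 12.01 and 12.12 in controls and 11.41, 11.21, 11.48, 11.31 and 11.59 in mutants. The fall was 0.60 (SE 0.08, adjusted p = 0.000846). The glycogen tether Stbd1 was at -0.29, the synthase Gys1 at -0.36 and the phosphorylase Pygl at -0.39, all with adjusted p above the threshold (0.595 to 0.976). The median of the list was -0.09, with 10 members lower and 6 higher.

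Among claudins and tight junction genes 2 of 16 were called, both lower. Cldn1, a claudin that seals paracellular space in epithelia, read 5.77, 6.19, 6.36, 6.79 and 6.42 in controls and 3.65, 4.54, 4.17, 4.81 and 4.13 in mutants. It fell by 2.05 (SE 0.20, adjusted p = 1.56e-05), to 24.2% of the control level. Igsf5, a junctional adhesion protein of the immunoglobulin superfamily, fell by 0.59 (SE 0.11, adjusted p = 0.0142), with controls at 5.91 to 6.28 and mutants at 5.26 to 5.84. If control replicate 5, mutant 4 or mutant 5 was left out its difference was -0.55 to -0.54 and no longer called. Cldn18, the major claudin of the alveolar epithelium, was at -0.29 (adjusted p = 0.990), and the list median was -0.05. Of 12 general epithelial markers 0 were called, and their median was -0.07, with Krt19 at -0.37.

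Contractile and lipid mediator genes gave 1 call each. Ppp1r14a, an inhibitor of myosin phosphatase in smooth muscle, read 11.38, 11.38, 11.27, 11.24 and 11.17 in controls and 10.76, 10.70, 10.71, 10.64 and 10.64 in mutants. It fell by 0.60 (SE 0.07, adjusted p = 0.000224). It was the sole called gene of 16 smooth muscle genes, whose median was -0.00, and Acta2 was at -0.01. Lpar1, the main receptor for lysophosphatidic acid on fibroblasts, read 8.50, 8.36, 8.10, 8.37 and 8.73 in controls and 7.75, 7.77, 7.58, 7.74 and 7.66 in mutants. It fell by 0.71 (SE 0.11, adjusted p = 0.00571). Plpp3, which degrades the same lipid, was at -0.26 (adjusted p = 0.457), and 1 of 11 lysophospholipid genes was called.

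Matrix genes contributed 3 calls, all lower. Lox, which crosslinks collagen and elastin, read 12.49, 12.18, 12.21, 12.53 and 12.67 in controls and 11.95, 11.73, 11.88, 11.71 and 11.90 in mutants, and fell by 0.58 (SE 0.11, adjusted p = 0.0203). Mgp, a secreted inhibitor of calcification, fell by 0.47 (SE 0.08, adjusted p = 0.00703), with controls at 13.18 to 13.41 and mutants at 12.68 to 13.08. Ogn, a small leucine-rich proteoglycan, fell by 0.46 (SE 0.09, adjusted p = 0.0470), with controls at 10.66 to 11.09 and mutants at 10.16 to 10.47. These calls were unequal in strength. That of Mgp held without any single E16.5 array. Lox lost its call when any of controls 1, 4 and 5 or of mutants 2, 4 and 5 was left out (-0.60 to -0.52), and Ogn when any E16.5 array but control 1 was left out (-0.48 to -0.39). Of 21 proteoglycan and fibrillar matrix genes 6 were lower and 0 higher at an unadjusted p under 0.05, against 2.13% and 2.28% of all genes. Other lists had such counts too, with 4 of 16 glycogen genes and 4 of 15 growth arrest genes lower and 0 higher in both. The 6 matrix genes included the fibril-associated collagen Col14a1 at -0.54 (adjusted p = 0.0865), Col6a3 at -0.59 (0.429) and Col6a2 at -0.27 (0.496). In the elastic fibre list Mfap4 was at -0.47 and tropoelastin, Eln, at -0.41, both not called (adjusted p = 0.496 each). The medians of both lists, -0.09 and -0.04, were near that of all genes. Gstm2, a glutathione transferase, had the smallest called fall, 0.26 (SE 0.05, adjusted p = 0.0416), with controls at 10.27 to 10.36 and mutants at 9.98 to 10.11, and it was not called without any 1 of the 10 E16.5 arrays.

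The rises other than Nr1d2 were in regulators of mesenchyme and of Wnt signalling. Rspo2, a secreted agonist that strengthens Wnt signals and is needed for lung branching, read 6.24, 6.16, 5.69, 5.85 and 4.76 in controls and 7.36, 7.12, 7.09, 7.17 and 6.88 in mutants. It rose by 1.39 (SE 0.27, adjusted p = 0.0298), or 2.61-fold. The lowest control was replicate 5, without which the difference was 1.14 and not called (adjusted p = 0.0674). Rspo2 was called without controls 1 or 2, and not without any other single E16.5 array, where it was at 1.14 to 1.45. No other gene of the 25 tested in Wnt signalling was called, among them Wnt2 at -0.18, Rspo1 at -0.22 and the feedback target Axin2 at 0.14, chosen after their values were seen. The list median was 0.05.

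Prrx1, a homeobox gene of embryonic mesenchyme, read 7.07, 6.96, 7.21, 7.53 and 7.29 in controls and 8.08, 7.59, 7.76, 7.99 and 8.29 in mutants. Prrx1 rose by 0.73 (SE 0.13, adjusted p = 0.0118). The call held without any single E16.5 array, but not with sex as a covariate (0.78, adjusted p = 0.0810) or with the E16.5 arrays alone in the fit (adjusted p = 0.111). Nr2f1, an orphan nuclear receptor also called COUP-TFI, rose by 0.47 (SE 0.10, adjusted p = 0.0470), with controls at 8.35 to 8.54 and mutants at 8.59 to 9.10. Its call ended when any E16.5 array but mutant 1 was left out (0.43 to 0.49). Of 22 mesenchymal transcription factors these 2 were called. Tcf21, a regulator of fibroblast differentiation, was at -0.36 (adjusted p = 0.249), and the list median was 0.04.

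**Figure D2:**
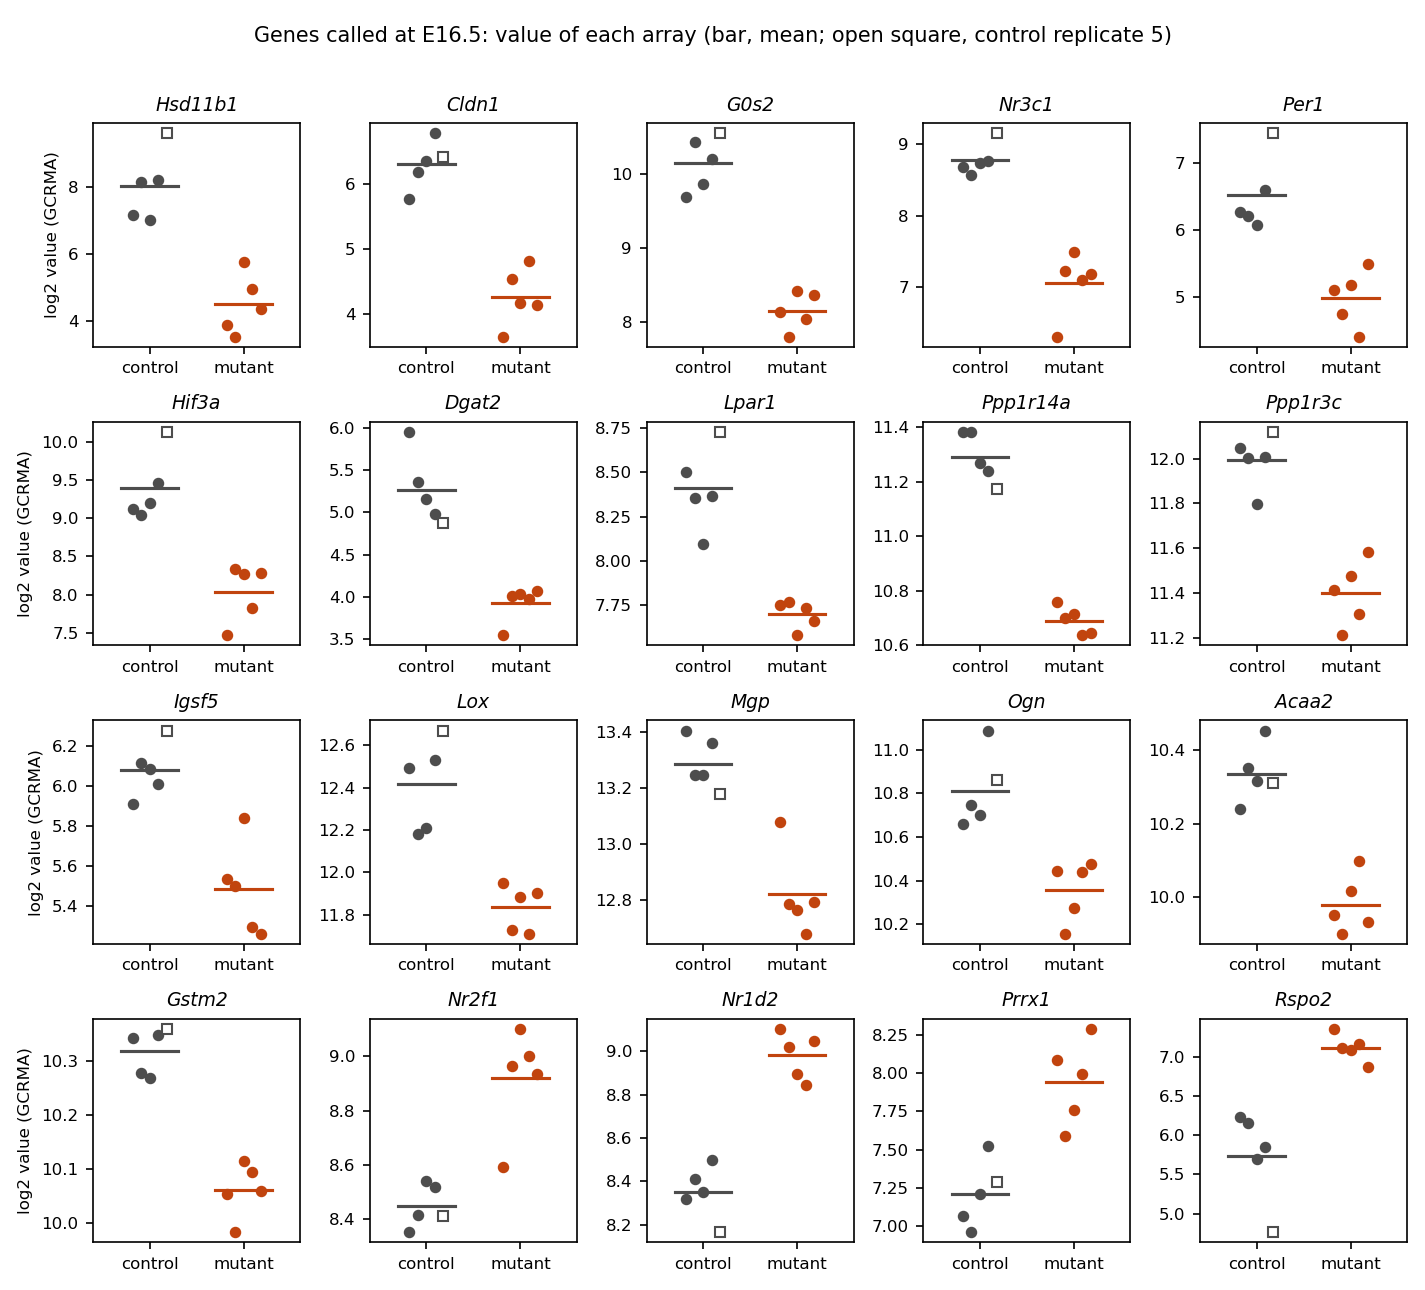
The log2 value of each E16.5 array is shown for the 20 called genes, ordered from the largest fall (Hsd11b1) to the largest rise (Rspo2), with controls in grey, mutants in orange and bars at the group means. The groups do not overlap in any panel, and the open square marks control replicate 5, which is the control farthest from the mutants in 12 of the 20 panels.

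Second probe sets with a mean above 4 repeated these directions in the same animals. The called genes had 20 further single-gene probe sets, of which 7, in 6 genes, had a mean above 4. All 7 pointed the same way as the first, and 5 were called in a fit over all probe sets. Those of Acaa2, Lox, Lpar1 and Nr3c1 were at -0.41, -0.68, -0.83 and -1.66, with a further one of Acaa2 also at -0.41, while the second probe sets of Ogn (-0.48) and Ppp1r3c (-0.70) were not called. The remaining ones were dim on average. Those of Cldn1 were at -0.001, -0.007 and -0.07 and those of Prrx1 at 0.12, -0.02 and 0.06, none of them called, so both calls rest on 1 probe set. The dim second probe set of Dgat2 was called, at -1.31.

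The 20 genes next in order of p did not pass (adjusted p = 0.0856 to 0.328) and are given as values. Of these, 16 were lower and 4 higher, and 14 had groups without overlap, against 1% of all genes tested. The 20 were picked by small p on the same arrays, so that count is no separate result. The transcription factors among them were Klf13 at -0.65, Maff at -1.37, Jdp2 at -0.40 and the interferon regulatory factor Irf8 at -0.72, with Sox13 at 0.75, Hoxb6 at 0.53 and Atf6b at 0.23. Membrane and secreted proteins were the myelin protein Pmp22 at -0.37, the receptors Cd40 at -0.55 and Notch2 at -0.53, and Fibin at -0.45. The sulfotransferases Chst15 and Chst2 lay in opposite directions, at -0.47 and 0.40. The remaining genes were Dstyk (-0.51), Otulinl (-0.83), Trim47 (-0.42) and Vps4b (-0.17), beside Col14a1, H6pd and Tcf21 given above.

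Further pathways held few or no called members at E16.5. In FGF signalling (0 of 15 called, median -0.11) the receptor Fgfr4 was at -0.65, the ligand Fgf18 at -0.33 and the inhibitor Spry1 at -0.25. Of the 17 TGF-beta and BMP genes 0 were called and the median was -0.03, with the BMP target Id1 at -0.24. Of the 15 hypoxia genes Hif3a alone was called, while the targets Ndrg1 and Egln3 were at -1.03 and -0.76 and the median was 0.07. Growth arrest genes (15 tested, median -0.11) included the kinase inhibitor Cdkn1c at -0.27, the growth arrest ligand Gas6 at -0.23 and the stress gene Gadd45g at -0.50. Of the 14 immediate-early genes Egr1 was at 0.51 and Zfp36 at -0.44, and of the 15 ion and water transport genes Nedd4l was at -0.55. Cell cycle genes were close to their control level. Medians were -0.07 for 21 mitosis genes and 0.05 for 20 DNA replication genes, and 0 genes of either list had an unadjusted p under 0.05. Of the mitosis genes 20 were lower and 1 higher, and of the DNA replication genes 4 were lower and 16 higher.

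Markers of the other cells in the lobe were compared as whole lists. For alveolar type I cells 0 of 13 tested were called and 9 were lower, the median was -0.22, and Hopx was at -0.58. Aqp5 and Col4a3 of that list, chosen after their values were seen, were dim on all E16.5 arrays. The mean of that list was 8.04 to 8.46 in controls and 7.80 to 8.20 in mutants. For type II cells 0 of 14 were called and 11 were lower, the median was -0.08, and Sftpc differed by -0.00. Blood endothelial markers (0 of 14 called, 12 lower, median -0.09) included Ednrb at -0.57 and Robo4 at -0.38. Pericyte, club cell, ciliated, lymphatic, mesothelial and macrophage lists had 0 called members and medians between -0.12 and 0.12. For neighbouring tissues that could be dissected along with the lobe, 8 of 8 thymus and T cell genes were dim on all E16.5 arrays. Muscle transcripts varied between arrays. Of 10 skeletal muscle genes 5 were dim on all E16.5 arrays and 1 passed the filter, at 3.88 to 6.30 in controls and 3.69 to 4.37 in mutants. The mean of the cardiac list was 5.77 to 7.92 in controls and 5.83 to 7.42 in mutants. Cartilage and cardiac muscle medians were 0.14 and 0.03, with the cardiac myosin Myh7 at -0.91. Erythroid levels were 9.34 to 9.74 in controls and 9.05 to 10.01 in mutants. The part of any of these cells in the 20 calls was not tested.

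**Figure D3:**
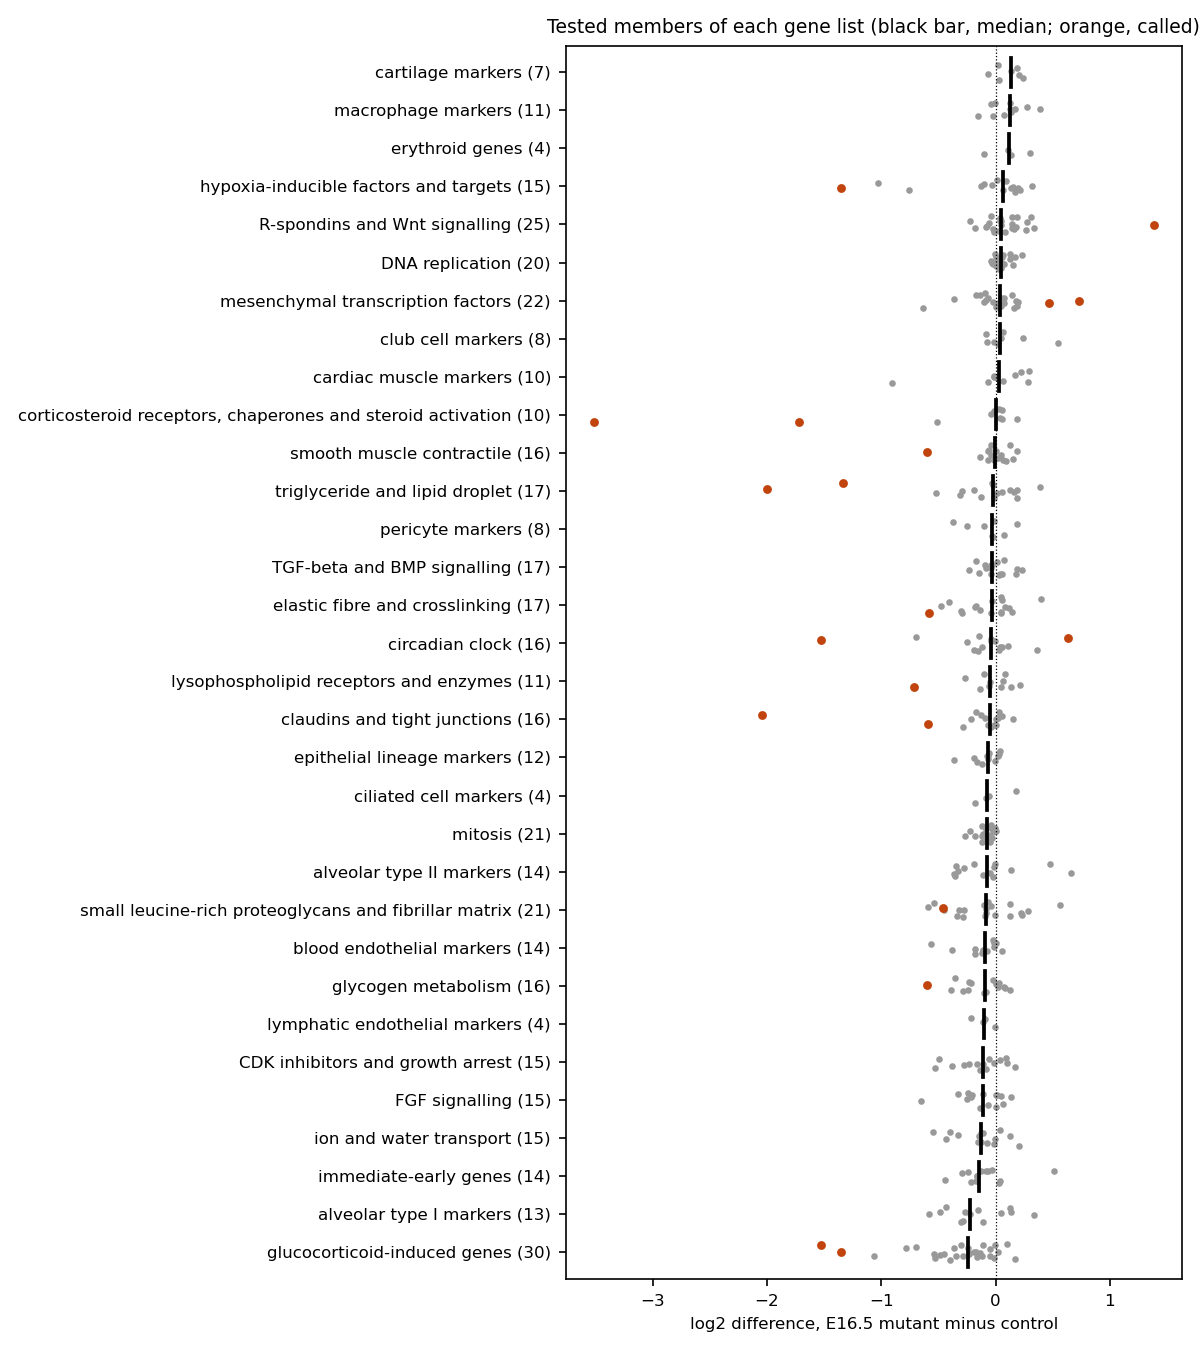
Each row is a gene list with its number of tested members in brackets, each point a member's log2 difference of mutant minus control at E16.5, and each black bar the list median. Among the lists drawn, which have at least 4 tested members, glucocorticoid-induced genes have a median of -0.24 and alveolar type I markers one of -0.22, and called members, in orange, stand apart from lists whose medians stay near 0.

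The E18.5 arrays come from other animals and give a separate measurement of the same contrast. There, 2784 genes were called (34.5%), 1282 lower (15.9%) and 1502 higher (18.6%). One E18.5 control, replicate 3, lay at 0.70 on the developmental line, below the others (1.02 to 1.09), and had the highest erythroid level of that group, so the counts are also given without it. All 20 genes called at E16.5 had the same direction at E18.5, 18 of them were called there, and 16 had a larger difference. Over all genes, a log2 difference of at least 1 in size was measured in 439 at E18.5 and 23 at E16.5. Larger effects at E18.5 were therefore not particular to the called genes. Without that control, 3355 genes were called at E18.5. At E16.5, 21 genes were then called, 19 of which were also called at E18.5. Of the 356 genes with an unadjusted p under 0.05 at E16.5, 85.4% had the same direction at E18.5, against 62.9% of all genes. Among the 172 lower ones 121 were called lower at E18.5 and 1 higher, and among the 184 higher ones 75 were called higher and 10 lower.

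The difference between the effects at both stages was called in 678 genes (8.4%), or 1445 without E18.5 control replicate 3, and in 6 of the 20. Rspo2 read 3.84, 3.92, 5.20, 3.72 and 4.19 in E18.5 controls and 7.91, 7.87, 7.26, 7.21 and 7.49 in E18.5 mutants. Its effect there, 3.37, exceeded that at E16.5 by 1.99 (SE 0.38, interaction adjusted p = 0.00416), and E18.5 controls lay below E16.5 controls except replicate 3, which exceeded the lowest of them. Lpar1 read 9.01, 9.06, 9.02, 9.33 and 9.20 in E18.5 controls and 7.33, 7.30, 6.73, 7.20 and 7.11 in E18.5 mutants, an effect of -1.99 that was larger in size than at E16.5 (interaction -1.28, SE 0.16). Gstm2 (-0.45), Mgp (-0.40) and Ogn (-0.51) also had larger falls at E18.5. The interaction of Mgp was not called without E16.5 controls 2 or 3 (adjusted p up to 0.0592), nor was that of Ogn without E16.5 control 3 or mutant 5 (up to 0.0524), while those of the other 4 genes held without any single E16.5 array. Ppp1r3c went the other way. It read 12.22, 12.18, 12.43, 12.12 and 12.07 in E18.5 controls and 12.20, 12.19, 12.15, 12.00 and 12.11 in E18.5 mutants, a difference of -0.07 (adjusted p = 0.506) that was smaller in size than at E16.5 (interaction 0.52, SE 0.11, adjusted p = 0.0109). Igsf5 was at -0.22 at E18.5 (adjusted p = 0.121), but the difference between its effects did not pass (adjusted p = 0.129).

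**Figure D4:**
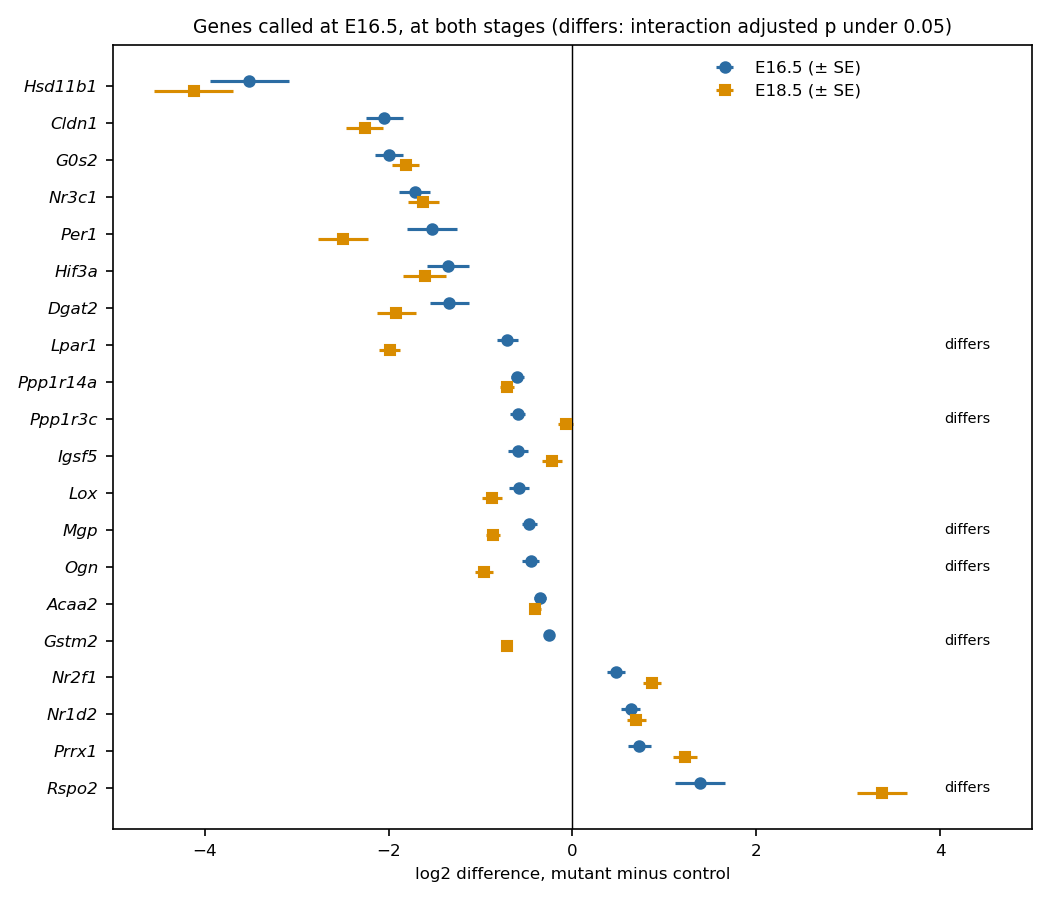
Log2 differences of mutant minus control with their SE are shown for the 20 genes called at E16.5, as circles at E16.5 and squares at E18.5, with the word differs where the interaction was called. All squares lie on the same side of 0 as the circles, and the E18.5 effect is larger in 16 genes.

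Larger effects at E16.5, with a called interaction, were found in 5 of the 356 genes. The interaction, whichever effect was larger, was called in 8.4% of all 8068 genes. The 356 were picked by their p at E16.5, and the same arrays enter the interaction, so the count of 5 is a description only. Beside Ppp1r3c the 5 were Fgf18 (-0.33 at E16.5, 0.20 at E18.5), Adssl1 (0.57, -0.27), Mfsd5 (0.25, -0.14) and the Y-linked Kdm5d (-4.30, 1.97). For Adssl1 the E16.5 means were 2.97 in controls and 3.55 in mutants, so its E16.5 difference rests on dim signal. Females were 1 of 5 controls and 5 of 5 mutants at E16.5, and 3 of 5 controls and 2 of 5 mutants at E18.5. The differences of Kdm5d between genotypes and stages therefore cannot be told apart from the mix of sexes. Kdm5d was dim in E18.5 control replicate 2 (2.26), a male by its other Y-linked transcripts, and its female minus male difference at E18.5 was not called (adjusted p = 0.913). All 21 mitosis genes and all 20 DNA replication genes tested were called higher in E18.5 mutants, with medians of 1.07 and 0.96, and of the 30 glucocorticoid-induced genes 21 were called lower and 1 higher, with a median of -1.02.

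The change of the controls between E16.5 and E18.5 shares the E16.5 controls with the main comparison, so its values are given side by side only (5718 genes, or 70.9%, were called). Hsd11b1 was at 4.39 from E16.5 to E18.5 in controls and at -3.52 in mutants against controls at E16.5. For Per1 these values were 1.84 and -1.53, and for Rspo2 -1.56 and 1.39. Hif3a, at 0.23 and -1.35, and Prrx1, at -0.13 and 0.73, had no called change with stage (adjusted p = 0.379 and 0.385).

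Since all E16.5 mutants were female and 1 control was, sex was examined on the E18.5 arrays, where both genotypes hold both sexes. There 4 genes differed by sex (Xist, Eif2s3x, Eif2s3y and Uty), and none was among the 20. Female minus male differences of the 20 lay between -0.49 and 0.17, the largest being that of Dgat2 (-0.49, unadjusted p = 0.0165), which is 36.4% of its E16.5 difference. Because the E16.5 groups overlapped in none of the 20 genes, the single female control lay on the control side in each, as did every male control. It was the control farthest from the female mutants in 12 and the nearest to them in 3 (Ppp1r14a, Dgat2 and Mgp). These positions come from the arrays that gave the calls, so sex and genotype cannot be told apart by them. Control replicate 5 was also the E16.5 array farthest along the developmental line (0.21), and the part of stage in its positions was not tested. With sex as a covariate 8 of the 20 were called: Nr3c1, Hsd11b1, G0s2, Cldn1, Lpar1, Ppp1r14a, Ppp1r3c and Rspo2. In the other 12 the adjusted p was then 0.0625 to 0.328. Dgat2 was at -0.95 in that fit and Rspo2 at 1.83, while the calls lost included Per1 (-1.53), Hif3a (-1.33) and Nr1d2 (0.66), whose differences stayed near those given above. Leaving out the female control gave 15 called genes, 14 of them among the 20. All E16.5 controls were then male and all E16.5 mutants female, so this fit cannot tell sex and genotype apart. Hsd11b1 was then at -3.12, Per1 at -1.30 and Hif3a at -1.17, each smaller in size than with all arrays.

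Whichever single E16.5 array was left out, 12 of the 20 stayed called: G0s2, Cldn1, Nr3c1, Ppp1r14a, Hsd11b1, Ppp1r3c, Dgat2, Lpar1, Nr1d2, Mgp, Hif3a and Prrx1. With the 10 E16.5 arrays alone in the fit, 9 were called, namely the first 8 of these 12 and Nr1d2. The genes called under each alternative in which they were tested were G0s2, Cldn1, Nr3c1, Ppp1r14a, Hsd11b1 and Lpar1, and 0 of the 20 changed direction under any of them. Apart from arrays left out there were 14 alternatives, and Cldn1 was tested in 13 of them.

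**Figure D5:**
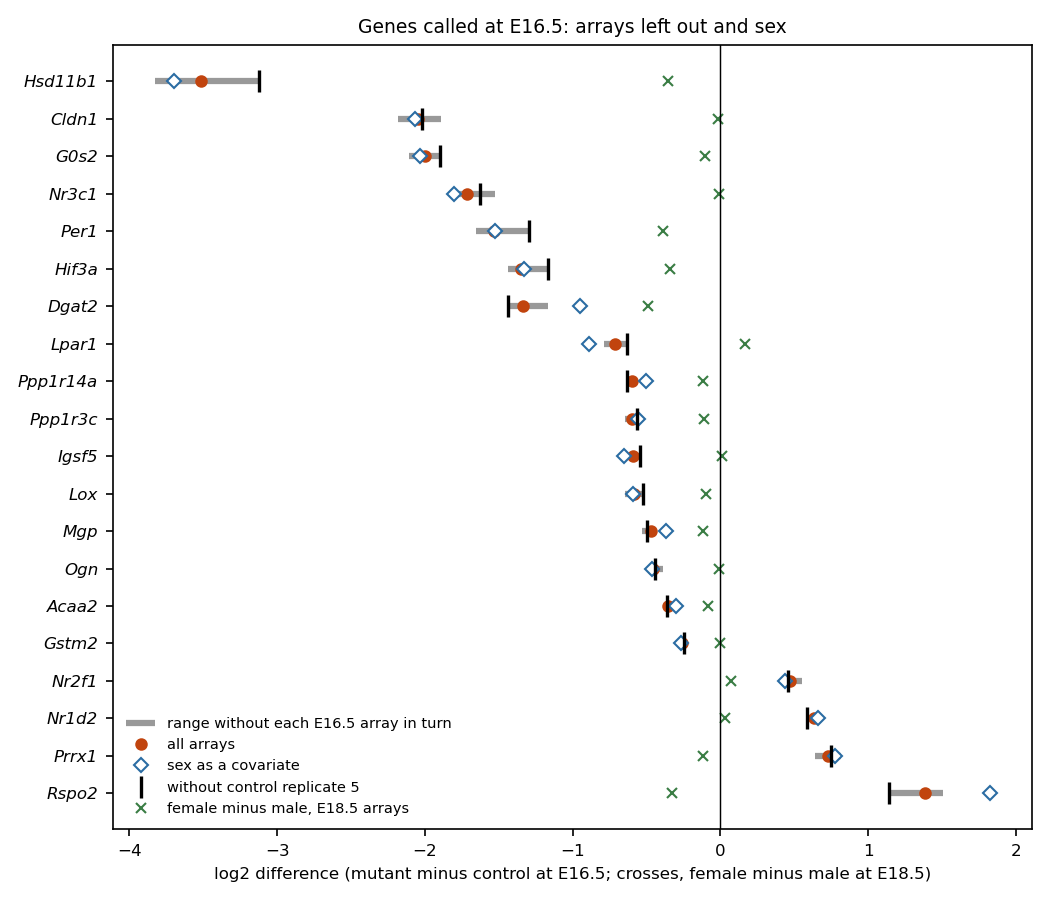
For each of the 20 genes the circle is the E16.5 log2 difference with all arrays, the grey bar its range without each E16.5 array in turn, the diamond the value with sex as a covariate, the tick the value without control replicate 5 and the cross the female minus male difference at E18.5. Circles, diamonds and ticks stay on 1 side of 0 in every gene, and crosses lie between -0.49 and 0.17.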

How the data were processed

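RNA of 20 left lung lobes was measured on Mouse430A_2 arrays. The authors deposited log2 values made with GCRMA (background correction, normalization across arrays, 1 summary per probe set) according to the labels, per the submitters' processing notes. Its version is not stated there. The arrays' number limits precision.

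Of 22690 probe sets, 20380 name 1 gene, 691 several, 1555 none and 64 are controls. For each of 12393 genes the single-gene probe set with the highest mean was used. A model with 4 group means was fitted in R 4.3.3 with limma 3.58.1 (lmFit, eBayes, two-sided tests) over the 20 arrays, with code tested on simulated data. Groups follow the sample titles, and replicates are separate animals.

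Members and the 36 gene lists (563 of 617 entries on the array) were chosen with earlier results of these data known, and lists are described by counts and medians. The text names Nr3c1, every called gene, the next 20 by p and, per list, up to 4 members with the smallest p; those with an unadjusted p of 0.05 or more enter the counts only, unless named as chosen after their values were seen. Symbols are those of the platform annotation, and 20351 single-gene probe sets matched a RefSeq gene by gene ID. Alternatives covered the arrays fitted, filter, normalization, probe set, variance model, weights, replicate number, sex, erythroid level and each array left out. Figures: matplotlib 3.10.9.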

Additional observations from a re-analysis of the deposited data

Results flagged for a closer look

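Among the groups of 5 arrays of the named genes, 18 of 150 had 1 array far from the other 4 by Dixon's gap ratio, and chance alone marks about 1 in 20 groups. Control replicate 5, the female control, accounted for 7. It was highest for Chst15 (8.91), Gys1 (8.34), Cldn18 (12.1), Fgfr4 (7.91) and Xist (12.0) and lowest for Kdm5d (2.27) and Eif2s3y (2.80). Mutant replicate 1 was lowest for Dgat2 (3.55), Maff (2.89) and Cebpb (9.94) and highest for Mgp (13.1). Mutant replicate 2 was highest for Fabp5 (12.4) and lowest for Mfap4 (10.2) and Plpp3 (9.67). Mutant replicate 4 was lowest for Col14a1 (9.29), Robo4 (5.50) and Xist (10.1), and mutant replicate 5 was highest for Col6a3 (10.9).

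The mutant effect at E18.5 minus that at E16.5 passed limma's interaction test (adjusted p under 0.05) in 17 named genes, and in 678 (8.4%) of all genes tested. The named genes were picked by their p at E16.5, on arrays that also enter this test, so the count of 17 is a description only. The difference was positive for Ppp1r3c (0.52), Fgf18 (0.53), Rspo2 (1.99) and the Y-linked Kdm5d (6.27). It was negative for the called genes Lpar1 (-1.28), Ogn (-0.51), Gstm2 (-0.45) and Mgp (-0.40). Among genes not called at E16.5 it was negative for Otulinl (-1.27), Eln (-0.93), Krt19 (-0.83), Fibin (-0.82), Irf8 (-0.80), Plpp3 (-0.73), Jdp2 (-0.70), Col14a1 (-0.68) and Pmp22 (-0.45).

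In a fit over all probe sets 34 were called at E16.5, and 3 of them name no gene. Probe set 1453238_s_at was at -1.10, 1452418_at at -1.10 and 1435137_s_at at -0.94, with the 5 mutants below the 5 controls each time, and at E18.5 they were at -1.69, -1.72 and -1.48.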

How the results depend on the processing

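All 20 called genes kept their direction under every alternative in which they were tested, and counts moved more than directions. With the E16.5 arrays alone 9 genes were called (8 lower, 1 higher), all 9 among the 20. With array weights 43 were called (31 lower, 12 higher), 34 also at E18.5 and 24 with an interaction call, and 2244 genes had an interaction call. Without the filter on dim genes 7 genes were higher, and with quantile normalization 2 were higher and 3 calls had an interaction call, as had 3 with the probe set of highest variance. With sex as a covariate 8 were called (7 lower, 1 higher), all 8 among the 20, with 7 also called at E18.5, 2 with an interaction call and 403 interaction calls over all genes. Eif2s3y was then at 0.26 and Xist at -1.17, the reverse of their direction without it. The erythroid level as a covariate gave 1899 interaction calls, and leaving out E18.5 control replicate 3, chosen after seeing the data, gave 1445 and 21 genes called at E16.5. At an unadjusted p under 0.05, 356 genes passed. Without each E16.5 array in turn the counts were 13 to 18 called (11 to 15 lower, 2 to 3 higher), 13 to 17 of the 20 kept, 12 to 16 also called at E18.5, 3 to 6 with an interaction call and 420 to 919 interaction calls over all genes, and the lowest of the call counts came without mutant replicates 4 or 5.

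Same-numbered animals of both genotypes correlated in their deviations from the group means at 0.59, 0.17, -0.096, 0.33 and 0.60 for replicates 1 to 5, and 4 of 5 controls and 3 of 5 mutants matched their own number best. The labels name no shared litter or day, and the fit without the block was kept. While 1 of the 5 pairs was under 0.1, the other 4 pairs and the best matches hint at a link between same-numbered animals. The calls of the 4 rises depend on this choice. With the replicate number as a block within each stage 12 genes were called, 0 of them higher, 11 among the 20 and 11 also at E18.5, with 443 interaction calls over all genes and 3 among the 12. Prrx1, Nr1d2, Rspo2 and Nr2f1 then had adjusted p of 0.0567, 0.0723, 0.0882 and 0.165. As a block over the 20 arrays it gave 2 higher genes and 3 calls with an interaction call.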

Other observations

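Without the filter on dim genes, 5 genes below it were called at E16.5 (limma, adjusted p under 0.05), all higher in mutants. They were Dio2, which activates thyroid hormone, at 1.03 (SE 0.18), the TNF family ligand Tnfsf9 at 0.91 (SE 0.15), the ephrin receptor Epha5 at 0.55 (SE 0.09), Kifc5b at 0.59 (SE 0.11) and Fbxl15 at 0.39 (SE 0.08). At E18.5 they were at 0.15, 0.41, 0.17, 0.03 and 0.02, with adjusted p of 0.0539 to 0.887. Control means at E16.5 were 2.13 to 2.74, under the log2 value of 4 that marks a dim gene, so these differences rest on dim signal.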
